A study of Mus musculus with 18 samples.

Results

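Collagen is modified before it bears load, first inside the cell by hydroxylases and then outside it by oxidases that crosslink neighbouring molecules, and 10 genes encoding these enzymes were followed here in fibroblasts of 3 organs. The genes were the 5 lysyl oxidases *Lox*, *Loxl1*, *Loxl2*, *Loxl3* and *Loxl4*, the 3 lysyl hydroxylases *Plod1*, *Plod2* and *Plod3*, and *P4ha1* and *P4ha2*, which encode 2 of the catalytic alpha subunits of collagen prolyl 4-hydroxylase. They were chosen by name and matched to the Ensembl rows of the gene count table, where all 10 were found among 38924 rows, and all 10 had enough counts to be tested. The lowest count of any of them in any library was 380 and the highest was 169461.

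Fibroblasts were isolated from heart, kidney and tail of mice described as 10-week-old males carrying Rosa mT/mG, a reporter that labels cells with membrane TdTomato, on a C57BL/6 background, and were grown for 10 days. Part of each preparation was placed under the kidney capsule of syngeneic C57BL/6J recipients of 10 to 11 weeks, as 400000 to 500000 cells on gelatin foam, and CD45−;TdTomato+ cells were sorted 3 days later. These transplanted cells are called HFs (heart), KFs (kidney) and TFs (tail). The rest was replated at 50000 cells per well and kept in culture, giving HFc, KFc and TFc. All groups therefore carried the reporter and had passed through culture, and the host site was a kidney in every transplant. The sort of CD45−;TdTomato+ cells is described for the transplant arm alone. The methods refer to an earlier isolation section that includes a sort, so whether cells were also sorted before the arms were split is not clear. The study's methods name a low-input total RNA kit for cells taken from the kidney capsule and do not name the kit for their cultured controls. Any part of library preparation or RNA input in the differences between the arms was not tested. Each group had 3 libraries, which the study describes as biological replicates. The labels do not say whether they came from separate animals or preparations, so the p-values rest on the spread between libraries, pooled over the groups fitted.

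Prolyl 4-hydroxylase adds hydroxyl groups to prolines of procollagen chains in the endoplasmic reticulum, a step the triple helix needs to be stable at body temperature. Lysyl hydroxylases act on lysines in the same compartment: lysyl hydroxylase 1 (*Plod1*) on the helical part, lysyl hydroxylase 2 (*Plod2*) on the telopeptides, and lysyl hydroxylase 3 (*Plod3*), which also attaches sugars to hydroxylysine. All of these enzymes use oxygen, iron, 2-oxoglutarate and ascorbate. Lysyl oxidases are copper enzymes that work outside the cell, where they convert lysines and hydroxylysines of collagen and elastin to aldehydes from which crosslinks form, and they are studied in scarring of heart, kidney and skin.

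Library totals were between 17927838 and 32245168 counts. KFs replicate 3 stood apart: its *Xist* level was 1492 CPM (each count divided by its library's total, set to one scale with edgeR's TMM correction for composition) against at most 0.404 in the other 17 libraries, and its 4 Y-linked genes summed to 0.722 CPM against 175 to 229.9. These values go against the description of the donors as male, so the identity of the library labelled KFs replicate 3 is in doubt. Its name in the count table and in its sample description also lacks the letter and number code that the other 17 names carry. Its log2 CPM correlated with the other KFs libraries at r = 0.917 and 0.918, against 0.973 between those 2. Since all libraries share one estimate of the spread, this library also widened the errors of comparisons it was not part of, and results are given with it and without it. Pairs of libraries differed, relative to counting error, by a mean chi-square per gene of 4.74 to 7.65 within cultured groups. Within transplanted groups it was 11.5 to 258, and at most 88.7 without KFs replicate 3. The shared estimate can therefore be too wide between cultures and too narrow between transplants. Fibroblast markers were present in every library, with higher sums after transplantation: 8 genes summed to 41253 to 76079 CPM in HFs, 15462 to 60037 in KFs and 23458 to 29828 in TFs, against 14561 to 14914, 12403 to 13223 and 17012 to 17106 in the matching cultures. Of these 8, 5 were higher and 2 lower in HFs, 5 and 1 in KFs, and 4 and 1 in TFs. The sums rest in large part on *Col1a1*, which is also a substrate of the enzymes. It was at 45892 of the 76079 CPM in HFs replicate 1 and 37637 of the 60037 in KFs replicate 1. In KFc, 7 of the 8 markers had more than 3 counts in every library, and in the other groups all 8 did. KFs replicate 3 had the lowest of the KFs sums for this list, at 15462 CPM against 60037 and 49794, and for the macrophage list, at 12.6 against 145 and 114. The 8 proximal tubule markers summed to 70.2 to 1091 CPM in HFs, 50.9 to 109 in KFs and 103 to 289.9 in TFs, and to 19.9 to 20.2, 95.6 to 102 and 14.0 to 16.4 in the matching cultures. In edgeR's test 8, 7 and 8 of these 8 markers were higher in HFs, KFs and TFs than in culture. *Slc27a2* and *Kap*, defining genes of that segment, had 0 counts in every cultured library. The 8 macrophage markers summed to 93.6 to 158, 12.6 to 145 and 37.3 to 45.3 CPM in HFs, KFs and TFs and to 96.5 to 111, 440.4 to 471 and 183 to 210.4 in culture, with none called in heart and 6 lower in kidney and in tail. The 5 smooth muscle and pericyte markers summed to 115 to 135 CPM in HFc, 1530.3 to 1577 in KFc and 186 to 195 in TFc, and to 27.1 to 54.4, 99.9 to 189 and 45.9 to 57.0 in HFs, KFs and TFs, with 3, 4 and 2 of the 5 called lower and 2, 1 and 0 called higher. Of 6 loop, distal tubule and collecting duct markers, 6, 4 and 5 were higher after transplantation in heart, kidney and tail, where they summed to at most 86.4 CPM. Of 6 endothelial markers, 5, 3 and 2 were higher and 0, 1 and 0 lower, and their sum was at most 67.0 CPM. Of 5 erythroid markers, all at 0 in every cultured library, 5, 1 and 5 were higher, with a sum of at most 42.5 CPM. Without KFs replicate 3, 3 macrophage markers were higher in heart, and 7 were lower in kidney and in tail. Proximal tubule markers were then 8, 6 and 8 higher, and erythroid markers 5 in each organ. Fibroblast markers were 6 higher and 2 lower in heart, 5 and 1 in kidney, and 5 and 2 in tail. Counts of the loop, endothelial and smooth muscle lists stayed the same. The part of other cell types in the results below was not tested, and in bulk libraries fewer cells of a type and less RNA per cell cannot be told apart.

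*Lox* was the most abundant of the 10 genes per length of transcript in every group, at 521 CPM per kb of merged exons in HFc, 647 in KFc, 1092 in TFc, 491 in HFs, 440.1 in KFs and 641 in TFs. *Loxl2* came second in 5 groups but not in TFc, where it stood at 41.4 CPM per kb, below *Loxl1* at 53.2, *Loxl3* at 52.3, *P4ha1* at 48.2 and *Plod3* at 43.4. *Loxl4* or *Plod1* was lowest in each group, *Loxl4* with 5.08 to 8.55 CPM per kb over the group means. The length used matters for *P4ha2*, whose merged exons span 6239 bases and whose longest annotated transcript has 3060. Its KFs level was 60.1 CPM per kb on the first length and 122 on the second. With the second length *Plod2* was above *Loxl2* in HFc, at 186 against 169 CPM per kb.

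The plot of levels by library shows 3 kinds of pattern. *Plod1* and *P4ha2* were higher after transplantation in all 3 organs. *Plod2* and *Loxl2* had their lowest group means in tail in both states, although TFs libraries overlapped with HFc for *Loxl2*. *Plod3* was nearly flat, with group means between 149.8 and 196 CPM.

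**Figure D1:**
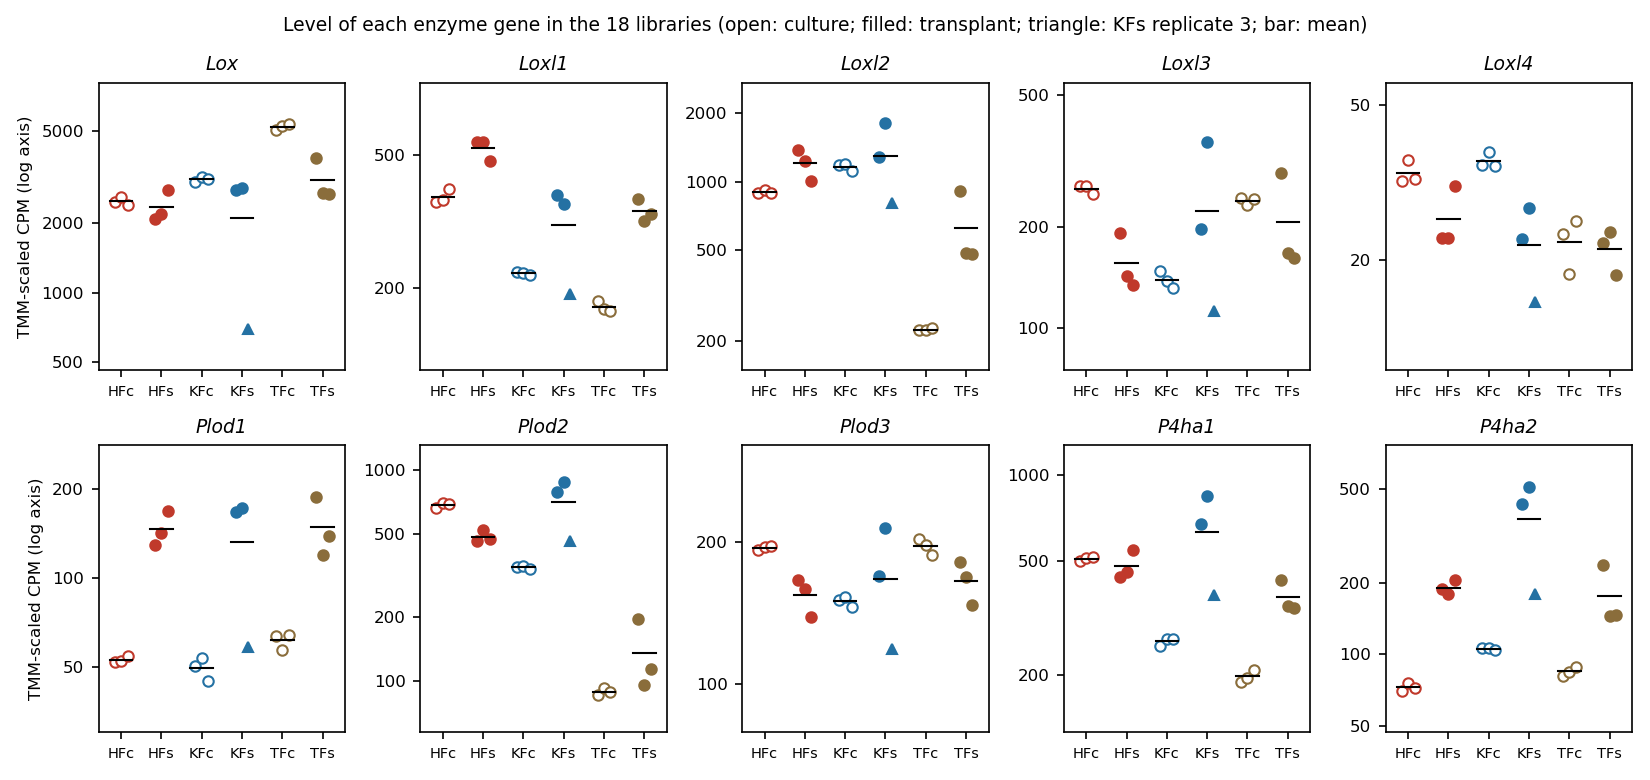
Level of each gene in TMM-scaled CPM on a log axis, one point per library, in the 6 groups (open, culture; filled, transplant; triangle, KFs replicate 3; bar, mean of 3). *P4ha2* lay between 70.2 and 106 CPM in the cultures and between 146 and 510.5 CPM after transplantation, and KFs replicate 3 was the lowest KFs library for all 10 genes.

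The alpha subunits of prolyl 4-hydroxylase carry its catalytic site and pair with protein disulfide isomerase, and *P4ha2* (chr11:54100095-54131665, GRCm38, plus strand) differed between transplant and culture in every organ. In heart fibroblasts it was at 70.2, 75.6 and 72.3 CPM in HFc and at 189, 180.1 and 206 in HFs. In kidney fibroblasts it was at 106, 106 and 104 CPM in KFc and at 433, 511 and 181 in KFs. In tail fibroblasts it was at 81.4, 84.6 and 88.4 CPM in TFc and at 238, 146 and 146 in TFs. No transplanted library overlapped with the culture of its organ. Its log2 fold change was 1.40 ± 0.27 (SE, edgeR adjusted p = 3.99e-04) in heart, 1.83 ± 0.27 (SE, edgeR adjusted p = 5.38e-05) in kidney and 1.06 ± 0.27 (SE, edgeR adjusted p = 0.00545) in tail, or 2.63-, 3.55- and 2.08-fold. Leaving out KFs replicate 3 gave a kidney value of 2.12 (edgeR adjusted p = 1.67e-08), and no alternative ended a call in any of the 3 organs.

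*P4ha1* (chr10:59323296-59373304, plus strand) rose in kidney and tail but passed no threshold in heart. Cultured heart fibroblasts already stood at 500.3, 514 and 515 CPM, and HFs at 440.3, 459 and 547. Kidney fibroblasts went from 253, 267 and 269 CPM in KFc to 670.3, 843 and 381 in KFs. Tail fibroblasts went from 189.8, 196 and 209 CPM in TFc to 428, 349 and 343 in TFs. Heart libraries of both states overlapped, whereas kidney and tail libraries did not. The log2 fold change was -0.08 ± 0.19 (SE, edgeR adjusted p = 0.745) in heart, 1.27 ± 0.20 (SE, edgeR adjusted p = 8.39e-05) in kidney and 0.91 ± 0.20 (SE, edgeR adjusted p = 0.00177) in tail. The difference between organs in this change was tested as an interaction. The heart change was below the kidney change by -1.35 ± 0.27 (SE, edgeR adjusted p = 0.00227) and below the tail change by -0.99 ± 0.27 (SE, edgeR adjusted p = 0.0168), both on the log2 scale. The heart-tail call was lost without HFs replicate 1 or 2, with an adjusted p of up to 0.0623.

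In culture *P4ha1* was higher in heart than in tail by a log2 fold change of 1.36 ± 0.20 (SE, edgeR adjusted p = 4.56e-05) and higher in heart than in kidney by 0.96 ± 0.20 (SE, edgeR adjusted p = 0.00161), without overlap. After transplantation neither held, at 0.37 ± 0.19 (SE, edgeR adjusted p = 0.194) and -0.39 ± 0.19 (SE, edgeR adjusted p = 0.137). KFs exceeded TFs for both genes, at 0.76 ± 0.19 (SE, edgeR adjusted p = 0.00852) for *P4ha1* and 1.08 ± 0.26 (SE, edgeR adjusted p = 0.00626) for *P4ha2*, although KFs and TFs libraries overlapped for each. *P4ha2* was lower in HFs than in KFs, at -0.97 ± 0.26 (SE, edgeR adjusted p = 0.0108), again with overlap. These values were, without KFs replicate 3, 1.02 (edgeR adjusted p = 4.38e-06), 1.42 (edgeR adjusted p = 3.25e-06) and -1.29 (edgeR adjusted p = 9.04e-06), and HFs then differed from TFs in *P4ha1* by 0.39 (edgeR adjusted p = 0.00778) and from KFs by -0.64 (edgeR adjusted p = 3.39e-04). The calls with all libraries were lost when only the groups compared were fitted, with edgeR adjusted p of 0.164 for *P4ha1* and 0.153 for *P4ha2* in KFs against TFs and 0.157 for *P4ha2* in HFs against KFs. If KFs replicate 2 was left out instead, the call of *P4ha1* in KFs against TFs was lost (log2 fold change 0.49, edgeR adjusted p = 0.0519), as was that of *P4ha2* in HFs against KFs (-0.67, edgeR adjusted p = 0.0730).

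*Plod1* (chr4:147909753-147936767, minus strand), the helical lysyl hydroxylase, was higher after transplantation in all 3 organs. It was at 51.9, 52.1 and 54.5 CPM in HFc and at 129, 142 and 169 in HFs. It was at 50.2, 53.4 and 44.8 CPM in KFc and at 168, 172 and 58.4 in KFs. It was at 63.3, 56.9 and 63.8 CPM in TFc and at 188, 119 and 139 in TFs. All transplanted libraries exceeded the culture libraries of their organ, with KFs replicate 3 close to its culture. The log2 fold change was 1.47 ± 0.28 (SE, edgeR adjusted p = 4.18e-04) in heart, 1.43 ± 0.28 (SE, edgeR adjusted p = 6.90e-04) in kidney and 1.28 ± 0.28 (SE, edgeR adjusted p = 0.00229) in tail, and 1.74 (edgeR adjusted p = 8.76e-08) in kidney without KFs replicate 3. No interaction passed: the heart change minus the kidney change was 0.05 ± 0.39 (SE, edgeR adjusted p = 0.958), heart minus tail was 0.19 ± 0.39 (SE, edgeR adjusted p = 0.773) and kidney minus tail was 0.15 ± 0.39 (SE, edgeR adjusted p = 0.862). Nor did *Plod1* differ between organs beyond the threshold in either state when all 18 libraries were fitted, with log2 differences from -0.31 to 0.14. In culture, however, every TFc library lay above every HFc and KFc library. With only the groups compared, *Plod1* was called lower in HFc than in TFc (edgeR adjusted p = 0.00192) and in KFc than in TFc (edgeR adjusted p = 0.00164).

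*P4ha1*, *P4ha2* and *Plod1* are shown with the 300 bases around their start sites (250 before and 50 after), because they rose together in kidney and tail, beside *Plod3*, which did not pass there with all 18 libraries. RefSeq windows on GRCm38.p6 were at hand for 5 of the 10 genes, *Loxl4* being the other one. The *P4ha2* window follows the RefSeq start, which lies inside the gene as GENCODE places it, so it does not hold the GENCODE start given above. Capitals mark ACGTG and GCGTG on either strand (also read as CACGT and CACGC), the core letters of the element that hypoxia-inducible factors bind.
*P4ha1*, chr10:59323046-59323345, plus strand: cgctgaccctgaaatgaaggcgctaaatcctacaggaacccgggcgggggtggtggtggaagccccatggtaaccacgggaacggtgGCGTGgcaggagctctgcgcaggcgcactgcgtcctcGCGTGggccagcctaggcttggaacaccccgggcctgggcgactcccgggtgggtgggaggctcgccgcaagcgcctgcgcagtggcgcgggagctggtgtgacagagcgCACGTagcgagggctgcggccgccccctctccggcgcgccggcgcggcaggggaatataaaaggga
*P4ha2*, chr11:54100674-54100973, plus strand: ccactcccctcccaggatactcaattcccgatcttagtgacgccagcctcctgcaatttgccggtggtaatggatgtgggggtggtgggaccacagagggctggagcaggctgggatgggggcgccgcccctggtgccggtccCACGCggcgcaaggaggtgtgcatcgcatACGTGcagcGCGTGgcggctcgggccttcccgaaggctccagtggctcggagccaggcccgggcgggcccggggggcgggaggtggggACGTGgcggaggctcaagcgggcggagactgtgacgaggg
*Plod1*, chr4:147936727-147937026, minus strand: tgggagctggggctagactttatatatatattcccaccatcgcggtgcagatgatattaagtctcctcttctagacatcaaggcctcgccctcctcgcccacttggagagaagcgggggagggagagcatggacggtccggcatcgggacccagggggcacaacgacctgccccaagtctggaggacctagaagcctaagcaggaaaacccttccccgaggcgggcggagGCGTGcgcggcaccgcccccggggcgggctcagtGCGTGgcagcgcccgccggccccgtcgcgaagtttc
*Plod3*, chr5:136986769-136987068, plus strand: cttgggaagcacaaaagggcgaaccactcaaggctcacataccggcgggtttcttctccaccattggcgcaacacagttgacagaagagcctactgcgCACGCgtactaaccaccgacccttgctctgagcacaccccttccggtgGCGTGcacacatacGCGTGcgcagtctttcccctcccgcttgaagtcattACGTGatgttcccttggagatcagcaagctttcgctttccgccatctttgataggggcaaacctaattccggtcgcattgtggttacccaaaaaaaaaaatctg

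The windows held 3 matches in *P4ha1*, 4 in *P4ha2*, 2 in *Plod1* and 4 in *Plod3*, and 1 in *Loxl4*. Of 32851 windows of this length in the same table, 43.8% held at least 1 match, 20.6% held 2 or more, 8.93% held 3 or more and 3.86% held 4 or more. None of the matches was part of CACGTG, which overlaps ACGTG and is bound by other factors. G and C made up 70.3% of the *P4ha1* and *P4ha2* windows, 64.3% of the *Plod1* window and 53.3% of the *Plod3* window, and the letters searched are rich in both. *Plod3* had as many matches as *P4ha2*. The windows shown were picked by the changes of their genes. *Plod2* and *Loxl1*, which were also called higher in kidney and tail, had no window at hand. Any part of these matches in the changes was not tested.

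*Plod2* (chr9:92542223-92608428, plus strand), the telopeptide lysyl hydroxylase, spanned the widest range of the 10 genes, with group means 7.97-fold apart. Cultured heart fibroblasts had 661, 699 and 687 CPM and HFs 463, 519.6 and 469. Cultured kidney fibroblasts had 347, 352 and 340.1 CPM and KFs 791, 875 and 459. Cultured tail fibroblasts had 85.4, 93.0 and 88.4 CPM and TFs 197, 95.5 and 113. From the highest mean to the lowest the groups were KFs, HFc, HFs, KFc, TFs and TFc, and only KFs and HFc overlapped among neighbours. The log2 fold change of transplant over culture was 1.03 ± 0.23 (SE, edgeR adjusted p = 0.00157) in kidney and 0.60 ± 0.23 (SE, edgeR adjusted p = 0.0473) in tail. In heart it was -0.50 ± 0.23 (SE, edgeR adjusted p = 0.0738), with every HFs library under every HFc library. When KFs replicate 3 was left out, it was 1.22 (edgeR adjusted p = 4.94e-05) in kidney, 0.58 (edgeR adjusted p = 0.0111) in tail and -0.48 (edgeR adjusted p = 0.0224) in heart.

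The heart change of *Plod2* differed from the kidney change by -1.53 ± 0.32 (SE, edgeR adjusted p = 0.00278) on the log2 scale, a call that every alternative kept, and from the tail change by -1.10 ± 0.32 (SE, edgeR adjusted p = 0.0223). The latter was lost without HFs replicate 1 or 3, TFs replicate 1 or TFc replicate 1 or 3, with an adjusted p of up to 0.0642 and a value of -0.73 without TFs replicate 1. The tail change itself was fragile: its call was lost in 14 of the 18 fits that left out 1 library, namely any library of HFs, HFc, KFc or TFc, KFs replicate 1 or TFs replicate 1. It was also lost without the filter on low counts (edgeR adjusted p = 0.0597). The tail call was kept without KFs replicate 3, at the value given above. Without TFs replicate 1, its highest library, the log2 fold change was 0.23 (edgeR adjusted p = 0.371).

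*Plod2* had the largest organ difference of the 10 genes, in cultured heart against tail. HFc exceeded TFc by a log2 fold change of 2.94 ± 0.24 (SE, edgeR adjusted p = 1.42e-07), or 7.68-fold, and KFc exceeded TFc by 1.96 ± 0.23 (SE, edgeR adjusted p = 1.18e-05). After transplantation HFs exceeded TFs by 1.84 ± 0.23 (SE, edgeR adjusted p = 3.46e-05) and KFs exceeded TFs by 2.39 ± 0.24 (SE, edgeR adjusted p = 4.03e-06). Neither state showed overlap with tail. Between heart and kidney the sign turned, from 0.98 ± 0.23 (SE, edgeR adjusted p = 0.00430) in culture to -0.55 ± 0.23 (SE, edgeR adjusted p = 0.0744) after transplantation, and to -0.77 (edgeR adjusted p = 0.00409) without KFs replicate 3.

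*Plod3* (chr5:136987019-136996648, plus strand) passed the threshold in none of the comparisons when all 18 libraries were fitted by group. Its log2 fold change was -0.33 ± 0.15 (SE, edgeR adjusted p = 0.0693) in heart, 0.16 ± 0.15 (SE, edgeR adjusted p = 0.400) in kidney and -0.24 ± 0.15 (SE, edgeR adjusted p = 0.206) in tail. The errors were smaller without KFs replicate 3, and the values were -0.31 (edgeR adjusted p = 0.00574), 0.31 (edgeR adjusted p = 0.0143) and -0.26 (edgeR adjusted p = 0.0218), lower in heart and tail and higher in kidney. With the replicate number as a block on all 18 libraries it passed in HFs against HFc (log2 fold change -0.34, edgeR adjusted p = 0.0395), KFc against TFc (-0.39, edgeR adjusted p = 0.0324) and HFc against KFc (0.38, edgeR adjusted p = 0.0430). The heart change minus the kidney change was then -0.62 (edgeR adjusted p = 0.00172), against -0.49 (adjusted p = 0.102) with all libraries.

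*Lox* (chr18:52516067-52529867, minus strand), the founding lysyl oxidase, was the most abundant member and passed in no transplant comparison. It was at 2476, 2598 and 2399 CPM in HFc and at 2082, 2178 and 2776 in HFs. It was at 3008, 3174 and 3089 CPM in KFc and at 2783, 2832 and 693 in KFs. It was at 5029, 5243 and 5373 CPM in TFc and at 3830.0, 2688 and 2664 in TFs. TFs libraries all lay below TFc, and KFs replicate 3 was the lowest library of the series by a wide margin. On the log2 scale the fold change was -0.09 ± 0.34 (SE, edgeR adjusted p = 0.844) in heart, -0.56 ± 0.34 (SE, edgeR adjusted p = 0.191) in kidney and -0.77 ± 0.34 (SE, edgeR adjusted p = 0.0863) in tail. The tail value without KFs replicate 3 was -0.79 (edgeR adjusted p = 8.49e-05) and passed, while the kidney value was -0.18 (edgeR adjusted p = 0.292). In culture *Lox* was lower in heart than in tail, by a log2 fold change of -1.07 ± 0.34 (SE, edgeR adjusted p = 0.0203), a call lost without HFc replicate 1 or 3 (adjusted p of up to 0.0606). Without KFs replicate 3 this difference was -1.09 (edgeR adjusted p = 2.34e-06). KFc against TFc gave -0.75 ± 0.34 (SE, edgeR adjusted p = 0.0964), and -0.73 (edgeR adjusted p = 1.77e-04) without KFs replicate 3.

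*Loxl1* (chr9:58287738-58313186, minus strand), the lysyl oxidase tied to elastic fibres, was called higher after transplantation in all 3 organs. It was at 360.4, 366 and 394 CPM in HFc and at 547, 546 and 479 in HFs. It was at 223, 221 and 219 CPM in KFc and at 379.7, 356 and 192 in KFs. It was at 183, 173 and 170.4 CPM in TFc and at 368, 317 and 334 in TFs. Heart and tail libraries were apart, whereas KFs replicate 3 lay below the KFc libraries. Its log2 fold change was 0.49 ± 0.17 (SE, edgeR adjusted p = 0.0239) in heart, 0.49 ± 0.17 (SE, edgeR adjusted p = 0.0285) in kidney and 0.95 ± 0.17 (SE, edgeR adjusted p = 4.95e-04) in tail, and 0.69 (edgeR adjusted p = 2.10e-06) in kidney without KFs replicate 3. The heart call was lost without HFs replicate 2 or HFc replicate 1 or 2 (adjusted p of up to 0.0716), and the kidney call without KFs replicate 1 or 2, any KFc library or TFc replicate 2 or 3 (log2 fold change down to 0.31, adjusted p of up to 0.163). The kidney call was also lost without the filter on low counts (edgeR adjusted p = 0.0507) and with only the groups compared (edgeR adjusted p = 0.196). Heart was the organ with most *Loxl1* in both states. HFc exceeded TFc by 1.09 ± 0.17 (SE, edgeR adjusted p = 1.12e-04) and KFc by 0.76 ± 0.17 (SE, edgeR adjusted p = 0.00359). HFs exceeded TFs by 0.63 ± 0.17 (SE, edgeR adjusted p = 0.0152), a call lost without HFs or TFs replicate 2 (adjusted p of up to 0.0645), and KFs by 0.76 ± 0.17 (SE, edgeR adjusted p = 0.00339), a call lost with only the groups compared (edgeR adjusted p = 0.124).

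*Loxl2* (chr14:69609068-69695834, plus strand), a lysyl oxidase known to act on type IV collagen of basement membranes, rose in tail, where its culture level was lowest. Tail fibroblasts had 223, 222 and 226 CPM in TFc and 906, 486 and 482 in TFs. Heart fibroblasts had 893, 919.7 and 890.4 CPM in HFc and 1384, 1236 and 1008 in HFs. Kidney fibroblasts had 1179.9, 1194 and 1116 CPM in KFc and 1278, 1812 and 805 in KFs. TFs libraries were all far above TFc, and heart libraries were apart by a small margin. Transplant over culture gave a log2 fold change of 1.48 ± 0.26 (SE, edgeR adjusted p = 3.43e-04) in tail, 0.42 ± 0.25 (SE, edgeR adjusted p = 0.162) in heart and 0.16 ± 0.25 (SE, edgeR adjusted p = 0.624) in kidney. In culture the gap to tail was 2.01 ± 0.26 (SE, edgeR adjusted p = 1.54e-05) for heart and 2.38 ± 0.26 (SE, edgeR adjusted p = 5.31e-06) for kidney. After transplantation it was 0.95 ± 0.25 (SE, edgeR adjusted p = 0.0124) for heart, lost without TFs replicate 2 or 3 (adjusted p of up to 0.0670), and 1.06 ± 0.25 (SE, edgeR adjusted p = 0.00560) for kidney, whose libraries overlapped with TFs and whose call was lost with only the groups compared (edgeR adjusted p = 0.142). As an interaction, the heart change minus the tail change was -1.06 ± 0.36 (SE, edgeR adjusted p = 0.0433) and the kidney change minus the tail change was -1.32 ± 0.36 (SE, edgeR adjusted p = 0.0265). Neither call held throughout. The first was lost without the filter on low counts (edgeR adjusted p = 0.0617) and in 13 of 18 fits that left out 1 library (without any library of HFs, HFc, KFc or TFc, or TFs replicate 1, which gave -0.69), with an adjusted p of up to 0.135. The second was lost with only the groups compared (edgeR adjusted p = 0.0633) and in 6 of these fits (without KFc replicate 1 or 2, TFs replicate 1 or any TFc library), with an adjusted p of up to 0.0596. Without KFs replicate 3 both passed, at -1.02 (edgeR adjusted p = 0.00872) for heart minus tail and -1.09 (edgeR adjusted p = 0.0131) for kidney minus tail.

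*Loxl3* (chr6:83034173-83052562, plus strand), a member of the family with scavenger receptor domains, had changes of opposite sign in heart and kidney. It was at 267, 266 and 251 CPM in HFc and at 193, 143 and 135 in HFs. It was at 148, 138 and 132 CPM in KFc and at 198, 361 and 112 in KFs. TFc and TFs overlapped, with means of 241 ± 6.43 and 207 ± 72.9 CPM (SD, n = 3). HFs libraries were all below HFc, and KFs was spread over a range wider than that between any 2 group means. The log2 fold change was -0.74 ± 0.30 (SE) in heart, with an edgeR adjusted p that rounds to 0.05 without being under it, and 0.69 ± 0.30 (SE, edgeR adjusted p = 0.0747) in kidney. The heart change minus the kidney change was -1.42 ± 0.43 (SE, edgeR adjusted p = 0.0237). This call was lost without HFs replicate 2 or 3, KFs replicate 2 or KFc replicate 3, with a value of -0.83 without KFs replicate 2 and an adjusted p of up to 0.0835, and with only the groups compared (edgeR adjusted p = 0.0574). Without KFs replicate 3 the values were -0.72 (edgeR adjusted p = 0.00770) in heart, 0.96 (edgeR adjusted p = 0.00252) in kidney and -1.68 (edgeR adjusted p = 7.02e-04) for their difference. In culture *Loxl3* was higher in heart than in kidney by 0.91 ± 0.30 (SE, edgeR adjusted p = 0.0349), lost in 11 fits (without any library of HFs, HFc or KFc, or TFc replicate 2 or 3), with an adjusted p of up to 0.102, and without the filter on low counts (edgeR adjusted p = 0.0509).

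*Loxl4* (chr19:42593982-42612813, minus strand) was the scarcest lysyl oxidase, at 35.2, 38.0 and 34.9 CPM in KFc and 22.6, 27.2 and 15.7 in KFs. No KFs library reached the KFc level. It fell in kidney, with a log2 fold change of -0.72 ± 0.18 (SE, edgeR adjusted p = 0.00359), and had -0.39 ± 0.18 (SE, edgeR adjusted p = 0.0766) in heart and -0.06 ± 0.18 (SE, edgeR adjusted p = 0.808) in tail. Every HFs library lay below every HFc library. Without KFs replicate 3 the values were -0.57 (edgeR adjusted p = 0.00560) in kidney, -0.37 (edgeR adjusted p = 0.0294) in heart and -0.08 (edgeR adjusted p = 0.653) in tail. Cultured heart and kidney exceeded cultured tail by 0.58 ± 0.18 (SE, edgeR adjusted p = 0.0155) and 0.69 ± 0.18 (SE, edgeR adjusted p = 0.00704). The heart call was lost without HFc replicate 2 or TFc replicate 2 (adjusted p of up to 0.0931).

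**Figure D2:**
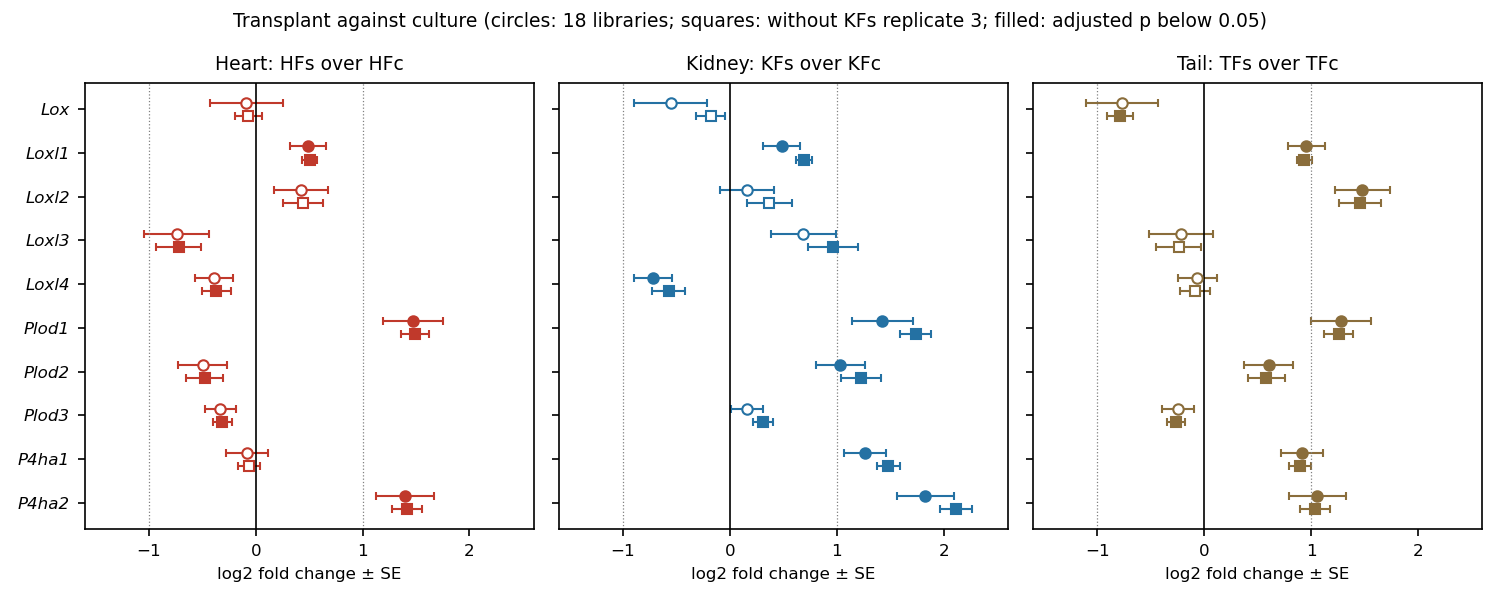
Log2 fold change of transplant over culture with its SE for each gene, in heart, kidney and tail (circles, 18 libraries; squares, without KFs replicate 3; filled, edgeR adjusted p below 0.05; dotted lines, a log2 fold change of 1 in size). *Plod1* and *P4ha2* lay between 1.06 and 1.83 with all libraries in all 3 organs, and *Lox* lay below 0 in each.

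Counted together, 3 of the 10 genes rose in heart (*Loxl1*, *Plod1* and *P4ha2*), where 28% of the 16577 genes tested rose, and none fell, where 28.4% of all genes fell. Beside that 0, *Loxl3*, *Plod3*, *Plod2* and *Loxl4* had negative changes with unadjusted edgeR p of 0.0282, 0.0413, 0.0444 and 0.0464. The share of all genes that fell at an unadjusted p under 0.05 was not counted, and it is at least the 28.4% at the adjusted limit. In kidney 5 rose (*Loxl1*, *Plod1*, *Plod2*, *P4ha1* and *P4ha2*) and 1 fell (*Loxl4*), against 26.1% and 22.7% of all genes. In tail 6 rose (those 5 and *Loxl2*) and none fell, against 18.6% and 20.2%. Past a log2 fold change of 1 as well, 2 rose in heart, 4 in kidney and 3 in tail, against 18.3%, 14.7% and 11% of all genes. The median log2 fold change of the 10 genes was -0.08 in heart, 0.59 in kidney and 0.76 in tail, beside medians over all genes of 0.05, 0.09 and 0. In heart the share of members called higher was near that of all genes, and none was called lower. Without KFs replicate 3, 7 members were called in heart (3 higher, 4 lower), 8 in kidney (7 higher, 1 lower) and 8 in tail (6 higher, 2 lower), beside 62.1%, 51.4% and 47.3% of all genes in either direction. Without KFs replicate 2, 2 members were past both limits in kidney, a fit in which all genes were not counted.

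Between cultured organs, 5 members were higher and 1 lower in heart than in tail, against 20.9% and 21% of all genes. In kidney against tail 3 were higher and none lower, against 17.8% and 18.5%. In heart against kidney 4 were higher and none lower, against 15.1% and 14%. Between transplanted organs, 3 were higher and none lower in heart than in tail (10.3% and 12.7% of all genes), 4 higher and none lower in kidney than in tail (15.3% and 13.8%), and 1 higher and 1 lower in heart than in kidney (14.2% and 19%). The changes with transplantation differed between heart and tail for 3 members (22.8% of all genes), between kidney and tail for 1 (11.1%) and between heart and kidney for 3 (26.2%). These comparisons share libraries with each other and with the transplant comparisons. Without KFs replicate 3 the counts were 6 for HFc against TFc (48.6% of all genes), 8 for KFc against TFc (43.8%), 7 for HFc against KFc (36.3%), 5 for HFs against TFs (31%), 4 for KFs against TFs (35.1%) and 6 for HFs against KFs (38.8%). For the differences of changes they were 5 for heart against tail (32.3%), 6 for kidney against tail (21.4%) and 5 for heart against kidney (35.2%). In the kidney change minus the tail change, *Lox*, *Loxl3*, *Plod3*, *P4ha1* and *P4ha2* were then above 0, by at least 0.57 on the log2 scale, and *Loxl2* below it at -1.09, whereas with all libraries *Loxl2* alone passed.

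**Figure D3:**
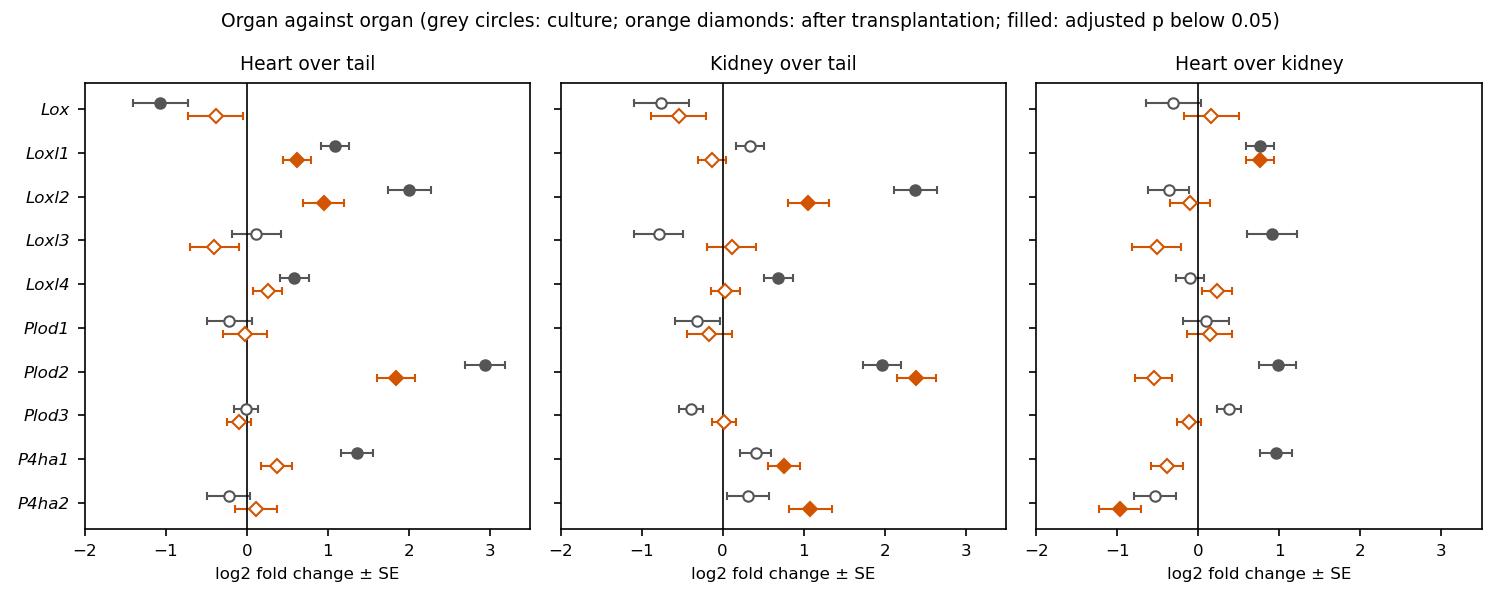
Log2 fold change with its SE between organs for each gene (grey circles, cultured cells; orange diamonds, transplanted cells; filled, edgeR adjusted p below 0.05; all 18 libraries). *Plod2* stood to the right of 0 against tail in both states, from 1.84 to 2.94, and *Loxl2* from 0.95 to 2.38.

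Shares within a family compare the enzymes inside one library and do not depend on library scaling. They are percentages of the family's CPM per kb of merged exons, with SD over 3 libraries. *Lox* made up 60.2% ± 0.932 of the lysyl oxidases in HFc, 66.8% ± 0.882 in KFc and 87.8% ± 0.538 in TFc. After transplantation it made up 53.6% ± 6.80 in HFs, 50.1% ± 10.8 in KFs and 70.6% ± 0.733 in TFs. Tail and kidney libraries did not overlap between states, and heart libraries did. *Loxl2* took 3.33% ± 0.0724 in TFc and 12.4% ± 1.87 in TFs, and *Loxl1* 4.28% ± 0.284 and 11.6% ± 1.65. *Loxl1* and *Loxl2* took a larger share after transplantation in all 3 organs, without overlap between states.

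Among lysyl hydroxylases *Plod2* led in heart and kidney and *Plod3* in tail. *Plod2* made up 71.3% ± 0.476 in HFc, 61.4% ± 0.459 in KFc and 23.9% ± 1.21 in TFc, and 61.6% ± 1.40 in HFs, 70.1% ± 0.965 in KFs and 29.2% ± 5.32 in TFs. *Plod3* made up 62.9% ± 1.18 in TFc and 44.5% ± 6.46 in TFs. *Plod1* went from 4.40% ± 0.122 in HFc to 14.9% ± 2.24 in HFs and from 13.2% ± 0.925 in TFc to 26.2% ± 1.73 in TFs, without overlap, whereas KFs overlapped with KFc. The share of *P4ha2* in the 2 alpha subunits was 8.60% ± 0.222 in HFc and 20.8% ± 1.11 in HFs. It was 20.9% ± 0.679 in KFc and 27.4% ± 3.17 in KFs, and TFc and TFs overlapped. With the longest transcript as length, the *P4ha2* share was 15.9% ± 0.377 in HFc and 34.5% ± 1.51 in HFs. In an exact two-sided permutation test of 3 against 3 libraries, every difference without overlap had p = 0.1, the smallest this design allows, so none of the 90 share comparisons could pass 0.05.

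**Figure D4:**
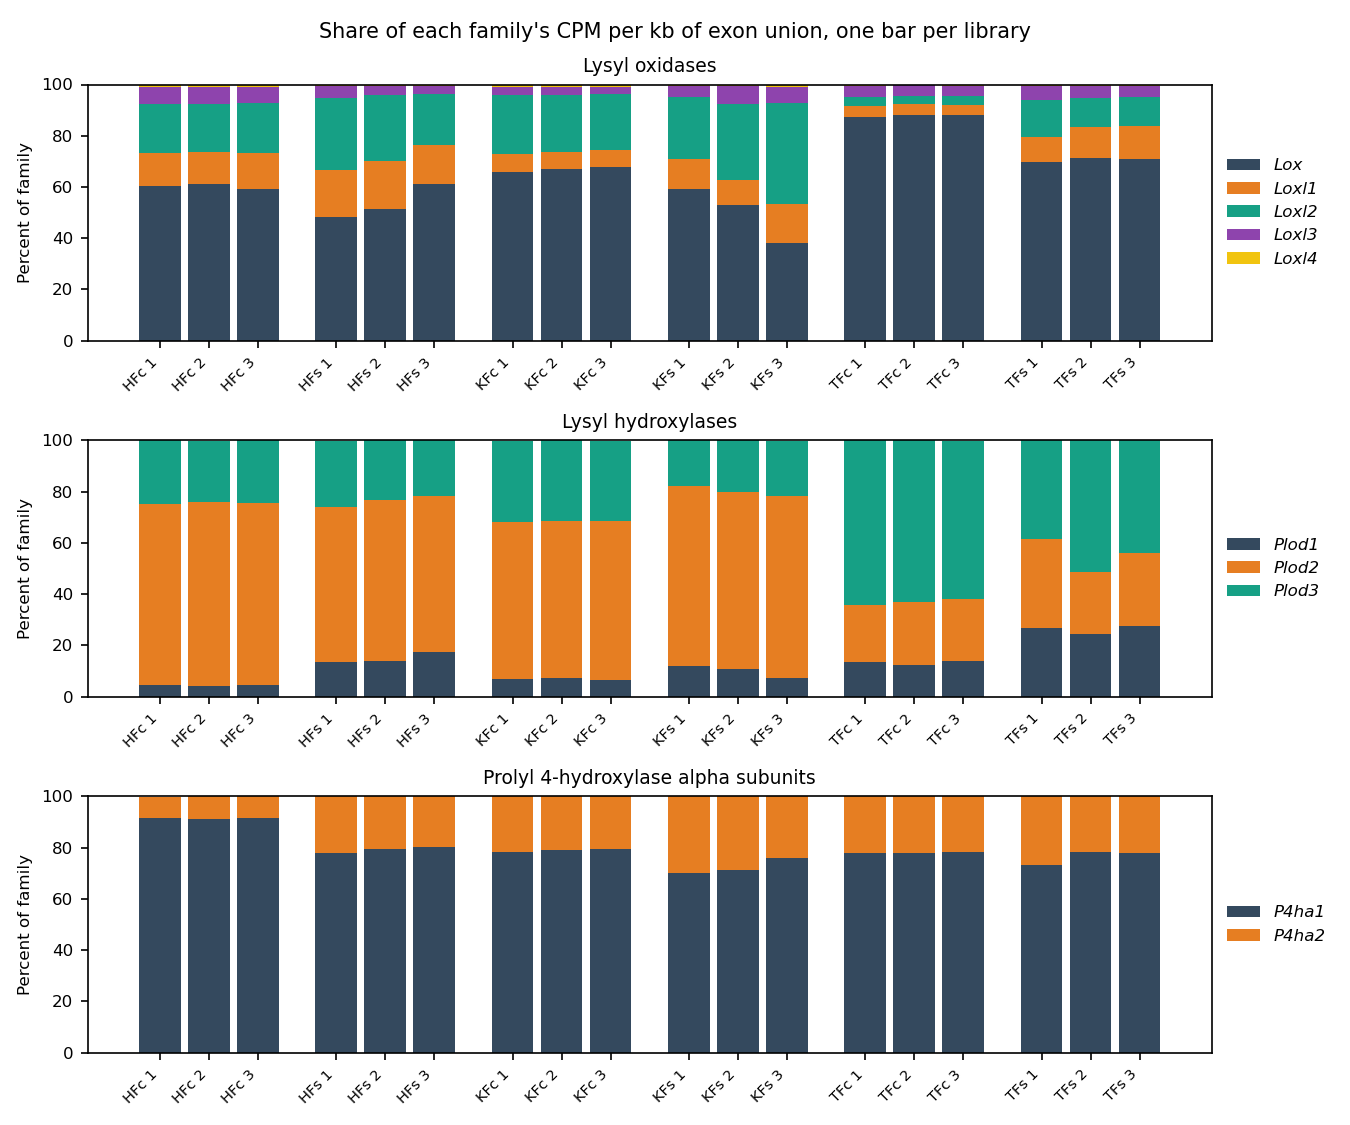
Percent of each family's CPM per kb of merged exons taken by each gene, one stacked bar per library, grouped by organ and state. *Lox* takes 87.1% to 88.1% of the bar in TFc and 38.1% in KFs replicate 3, and *Plod3* is the largest part of the lysyl hydroxylases in the tail libraries.

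Genes that act beside these enzymes were taken from 5 lists, of which 37 of 39 genes were tested, including collagen substrates, chaperones, processing proteases and partners of lysyl oxidase. Of the 37, 15 were higher and 5 lower in HFs than HFc, 14 and 7 in kidney, and 11 and 6 in tail, beside the shares of all genes given above. The 8 hydroxylation partners (*P4hb*, the beta subunit, and prolyl 3-hydroxylase components among them) had 4 higher and 1 lower in heart, 4 and 0 in kidney, and 1 and 1 in tail. *P3h2*, a prolyl 3-hydroxylase, had the highest mean of the 3 changes and passed in tail but not in heart or kidney, with log2 fold changes of -0.13 (edgeR adjusted p = 0.702) in heart, 0.53 (edgeR adjusted p = 0.127) in kidney and 2.63 (edgeR adjusted p = 4.10e-06) in tail. *P3h4*, a lysyl hydroxylase partner in the endoplasmic reticulum, had the lowest, at -1.07 (edgeR adjusted p = 3.19e-04), -0.49 (edgeR adjusted p = 0.0537) and -1.48 (edgeR adjusted p = 4.27e-05). Of the 5 chaperones and glycosyltransferases tested, 2 were higher in kidney and none was called in heart or tail. With KFs replicate 3 left out, 6 of this list were tested, of which 2 were higher and 2 lower in heart, 5 and 0 in kidney, and 2 and 1 in tail. *Colgalt1*, which adds galactose to hydroxylysine, was the highest of them, at 0.61 (edgeR adjusted p = 0.0473) in kidney, and *Fkbp10*, a chaperone that works with lysyl hydroxylase 2, the lowest, at -0.58 (edgeR adjusted p = 0.0590) in heart, or -0.57 (edgeR adjusted p = 8.88e-04) without that library. The hydroxylation partners then had 4 higher and 1 lower in heart, 5 and 1 in kidney, and 3 and 2 in tail.

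Of 7 procollagen processing proteases and enhancers, 4 were higher and 1 lower in heart, 3 and 2 in kidney, and 3 and 1 in tail. *Adamts3*, a procollagen N-proteinase, rose by 3.81 (edgeR adjusted p = 5.34e-06), 3.20 (edgeR adjusted p = 2.17e-05) and 1.60 (edgeR adjusted p = 0.00513) in heart, kidney and tail, and *Tll1*, a relative of the C-proteinase *Bmp1*, had -1.20 (edgeR adjusted p = 1.06e-05), -2.06 (edgeR adjusted p = 6.35e-08) and 0.27 (edgeR adjusted p = 0.162). *Bmp1*, named after its values were seen because it also cleaves the lysyl oxidase propeptide, rose by 1.74 (edgeR adjusted p = 3.87e-10), 0.95 (edgeR adjusted p = 1.26e-07) and 0.99 (edgeR adjusted p = 1.69e-07). Of 9 lysyl oxidase partners and copper carriers, 3 were higher and 2 lower in heart, 2 and 3 in kidney, and 3 and 4 in tail. *Postn*, a matrix protein that binds collagen and *Bmp1*, rose by 1.85 (edgeR adjusted p = 0.00220), 2.95 (edgeR adjusted p = 8.68e-05) and 6.12 (edgeR adjusted p = 6.82e-07). *Fbln5*, which assembles elastic fibres with *Loxl1*, had -1.18 (edgeR adjusted p = 0.0397), -3.15 (edgeR adjusted p = 9.07e-05) and -0.95 (edgeR adjusted p = 0.111).

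Of 8 substrates, 4 were higher and 1 lower in heart, 3 and 2 in kidney, and 4 and 0 in tail. *Col3a1*, the chain of type III collagen, had the highest mean change, at 3.00 (edgeR adjusted p = 7.12e-05), 2.80 (edgeR adjusted p = 1.68e-04) and 3.03 (edgeR adjusted p = 1.46e-04), and *Col5a2* the lowest, at 0.22 (edgeR adjusted p = 0.563), -0.18 (edgeR adjusted p = 0.650) and -0.73 (edgeR adjusted p = 0.0683). *Col4a1*, the basement membrane chain, was named after its values were seen and went with organ, at -0.36 (edgeR adjusted p = 0.0328), -0.60 (edgeR adjusted p = 0.00203) and 1.46 (edgeR adjusted p = 1.42e-06). Without KFs replicate 3 the substrates had 4 higher and 1 lower in heart, 4 and 2 in kidney, and 5 and 1 in tail, the processing list 5 and 1, 4 and 2, and 4 and 1, and the lysyl oxidase partners 4 and 2, 3 and 4, and 3 and 5.

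Genes of the hypoxia response were read alongside, because *P4ha1*, *P4ha2*, *Plod1*, *Plod2* and *Lox* are known to respond to low oxygen in many cells. Of 12 such genes, 10 were higher and 1 lower in heart, 10 and 0 in kidney, and 11 and 0 in tail. *Egln3*, an oxygen sensor, rose by 4.68 (edgeR adjusted p = 2.28e-05), 4.82 (edgeR adjusted p = 1.98e-05) and 4.77 (edgeR adjusted p = 5.59e-05), while *Adm*, the adrenomedullin gene, had -1.51 (edgeR adjusted p = 0.00947), 0.06 (edgeR adjusted p = 0.917) and 0.26 (edgeR adjusted p = 0.667). The 12 genes summed to 1188 to 2171 CPM in HFs, 1457 to 2962 in KFs and 1500.3 to 2436 in TFs, and to 1138 to 1165, 849 to 872 and 815 to 846 in HFc, KFc and TFc. Without KFs replicate 3 the counts of the list were the same in all 3 organs. The part of oxygen supply in these changes was not tested.

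For the member with the widest range of group means in each family, the 3 genes with the most similar log2 CPM over the 18 libraries were listed, as a description only, since these libraries share groups. *Loxl2* was most like ENSMUSG00000098872 (Pearson r = 0.993), *Rai14* (0.971) and ENSMUSG00000081448 (0.935), the unnamed identifiers being absent from the annotation used. *Plod2* was most like *Fblim1* (0.965), *Glipr1* (0.960) and *Gata6* (0.950), and *P4ha2* was most like *Spats2* (0.971), *Lgi2* (0.969) and *Usp13* (0.968). *Loxl2*, *Loxl3*, *Plod2*, *Plod3* and *Lox* overlap genes on the opposite strand in GENCODE release 21, and the study's methods state that reads were counted by strand.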

How the data were processed

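RNA of 18 libraries (3 each of HFs, HFc, KFs, KFc, TFs and TFc) was analysed from 1 table of expected counts per gene. As the study's methods describe, the authors trimmed the reads and estimated these expected counts with RSEM and Bowtie2 on GRCm38, by strand. The deposited table holds whole numbers, whose totals differ between libraries, so they were taken as not normalized. The submitters' processing notes list mm9, Bowtie and RSEM instead, which gene-level counts do not settle. Positions and lengths came from GENCODE mouse release 21, which held 37607 of the 38924 rows.

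Groups were taken from the sample titles. The quasi-likelihood test of edgeR 4.0.16 (R 4.3.3) was fitted once to the 18 libraries, with a coefficient for each group, after filterByExpr and TMM scaling, and p-values were adjusted over 16577 genes by Benjamini-Hochberg, with a threshold of 0.05; transplant comparisons were also counted past a log2 fold change of 1 in size. The SE is the log2 fold change divided by the square root of F. The common biological coefficient of variation was 0.24. On simulated data the method was tested only for large changes and with the same spread in every gene and library. That does not test smaller changes or groups of unequal spread. Levels are TMM-scaled CPM, shares were compared by exact permutation in scipy 1.17.1, and counts of 3 or fewer were treated as not detected; floors cover counting error only.

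Alternatives were DESeq2 1.42.0, its size factors, library size alone, no filter, a mean of 10 counts, the replicate number as a block, only the groups compared, an adjusted p of 0.01, the longest transcript as length, and each library left out. Members and lists were chosen with earlier results of these data known. List genes named are those with the highest and lowest mean change over 3 organs; *Bmp1* and *Col4a1* were added after their values were seen.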

Additional observations from a re-analysis of the deposited data

Results flagged for a closer look

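With all 18 libraries, differences between organs in the response to transplantation passed edgeR's interaction test for 4 genes, and each is given as a difference of log2 fold changes. Heart minus kidney was -1.53 ± 0.32 (SE, edgeR adjusted p = 0.00278) for *Plod2*, -1.35 ± 0.27 (SE, edgeR adjusted p = 0.00227) for *P4ha1* and -1.42 ± 0.43 (SE, edgeR adjusted p = 0.0237) for *Loxl3*. Heart minus tail was -1.10 ± 0.32 (SE, edgeR adjusted p = 0.0223) for *Plod2*, -1.06 ± 0.36 (SE, edgeR adjusted p = 0.0433) for *Loxl2* and -0.99 ± 0.27 (SE, edgeR adjusted p = 0.0168) for *P4ha1*. Kidney minus tail was -1.32 ± 0.36 (SE, edgeR adjusted p = 0.0265) for *Loxl2*, and without KFs replicate 3 another 5 genes passed there, all above 0. Also without that library, heart minus tail passed for *Lox* at 0.72 (edgeR adjusted p = 0.00515) and *Loxl1* at -0.43 (edgeR adjusted p = 0.00367). Heart minus kidney then passed for *Plod3* at -0.62 (edgeR adjusted p = 0.00172) and *P4ha2* at -0.70 (edgeR adjusted p = 0.0133). The values of *Plod2* and *P4ha1* in heart minus kidney kept their call in every alternative. The values of *Loxl2* in heart minus tail and kidney minus tail, of *Plod2* and *P4ha1* in heart minus tail and of *Loxl3* in heart minus kidney did not, and the libraries on which each rests are named with it in the report. Groups of 3 libraries were not tested for single outlying libraries.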

How the results depend on the processing

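None of the 44 calls of single genes reversed in any alternative, and 26 of them kept their call in every one. By count of the 10 genes called, HFs against HFc went from 3 to 7 with library size alone, 5 with the replicate block and 7 with only the groups compared. Of all genes, 9217, 9202 and 9552 were called there with these settings, beside 4638 higher and 4715 lower in the main fit. KFc against TFc went from 3 to 6, 5 and 10 with these same settings, and HFc against KFc from 4 to 8 with only the groups compared. For all genes the KFc against TFc counts were 5939, 5854 and 8675, beside 2951 higher and 3075 lower in the main fit. The HFc against KFc count was 7508, beside 2511 and 2322. KFs against TFs went from 4 to 1 (*Loxl2*, *P4ha1* and *P4ha2* lost), and HFs against KFs from 2 to 0 (*Loxl1* and *P4ha2* lost), with only the groups compared. Counts of all genes fell there too, to 1137 beside 2536 higher and 2283 lower, and to 883 beside 2356 and 3148. HFs against KFs went to 4 with library size alone and to 1 at an adjusted p of 0.01, where HFs against TFs went from 3 to 1. Library size alone called 6657 of all genes in HFs against KFs, and all genes were not counted at an adjusted p of 0.01. Of differences in response, heart against tail went from 3 to 0 at an adjusted p of 0.01 and to 5 with only the groups compared, and kidney against tail from 1 to 0 in both. With only the groups compared, 5643 of all genes differed for heart against tail and 1295 for kidney against tail, beside 3776 and 1835 in the main fit. The cause of these shifts was not tested. Library size alone moved the median of all genes by -0.22 (log2) in HFs against TFs, -0.20 in HFs against KFs and -0.16 in HFc against TFc. With 1 library left out the counts were 2 to 7 for HFs against HFc, 3 to 8 for KFc against TFc, 3 to 7 for HFc against KFc, 1 to 5 for HFs against TFs, 1 to 6 for HFs against KFs, 0 to 5 for heart against tail responses, 0 to 6 for kidney against tail and 2 to 5 for heart against kidney, and the upper value came without KFs replicate 3 in each. Shares of all genes without KFs replicate 3 are given above, and for other libraries left out they were not counted. Members past both limits in KFs against KFc numbered 2 to 4, the lowest without KFs replicate 2. The longest transcript as length moved the difference between HFs and HFc in family share from -12.2 to -18.6 percentage points for *P4ha1* and from 12.2 to 18.6 for *P4ha2*, and 208 other share values moved by less than 1 SD. Replicate numbers gave no sign of pairing, since residuals of same-numbered libraries correlated at -0.139 to 0.0792. With the replicate block *Plod2* in TFs against TFc had an edgeR adjusted p of 0.0573, and *Loxl3* passed in HFs against HFc (0.0381) and KFc against TFc (0.0437) and *Plod3* in the 3 comparisons named in the report. Each member had at least 380 counts in every library, against a detection floor of 3.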
